A study of Mus musculus with 3 samples.

Results

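Keratins are the intermediate filament proteins of epithelial cells. They are heteropolymers: an acidic type I keratin pairs with a basic type II keratin, and both are needed to build a filament. In skin each layer and each ring of the hair follicle is known for its own pairs, so that a keratin profile reads almost as a map of the tissue. Krt5 and Krt14 are the classic pair of dividing basal keratinocytes, Krt1 and Krt10 that of the differentiating layers above them, and a separate set of hair keratins hardens the hair shaft.

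The family was taken as every gene symbol made of Krt, digits and at most 1 letter, which left out keratin-associated proteins and pseudogenes. It holds 53 of the 32285 genes in the count tables. Of these, 27 are type I, 25 are type II and Krt222 is neither by name. In the GRCm38 annotation (GENCODE M21), 26 of the type I genes lie in 1 cluster on chromosome 11 between positions 99279959 and 100269871. The 25 type II genes and the type I gene Krt18 lie on chromosome 15 between positions 101347444 and 102032027.

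The cells came from the back skin of untreated wildtype mice at P38, 6 months and 12 months, with 1 single-cell RNA sequencing (scRNAseq) library per age. The mice were male, female and male in order of age by the methods. The study describes them as Krt14-H2B-GFP mice, so wildtype here does not mean free of a transgene. The study describes their follicles as in catagen (regression) at P38, mostly in anagen (growth) at 6 months and mixed at 12 months, so age, sex, hair cycle and library cannot be told apart. The methods also describe a sort on H2BGFP driven by the Krt14 promoter with a set ratio of epidermal to follicle cells, whereas the labels describe dissociated back skin without it. A sort of this kind would act on cells by the promoter of 1 member of the family, and it would set the shares of cell types. The P53 and 24 months libraries were not analysed here.

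The P38 library held 2397 barcodes, of which 2109 passed the filter. The 6 months library held 4761 (3502 passed) and the 12 months library 5421 (3240 passed). The median unique molecular identifier (UMI) count per kept cell was 16170, 1019 and 11438.5, so the 6 months library stood apart in depth. Of its kept cells, 1839 had under 1000 genes, and more cells of it passed the filter than the methods state for this library, for a reason not known here. The 6 and 12 months libraries shared 136 barcodes, 81 of them in kept cells of both. Results without the shared barcodes are given with the other alternatives.

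Cells were put into classes with marker genes that held no keratin, so that keratin levels were not used to class a cell. The markers were chosen with earlier results of these data known and the thresholds after the cells had been seen. The choice was therefore not blind to these data. The classes are interfollicular epidermis (IFE) basal-like, spinous-like and granular-like cells, upper hair follicle (UpHF)-like cells, outer bulge-like stem cells, inner bulge-like and migratory niche-like cells, hair germ-like cells, inner root sheath (IRS)-like, hair shaft-like and sebaceous gland-like cells, and proliferating keratinocytes. Between 55.7% and 62.4% of the kept cells of a library passed a gate. For each class with at least 20 cells in a library, the UMIs of its cells were added up and expressed as CPM (counts of a gene per 1e+06 counts of the sum). These 3ʹ libraries count transcript ends, so CPM can be compared between genes without a correction for length. Granular-like (205 cells), IRS-like (94) and hair shaft-like (89) cells reached 20 cells at 6 months only, and migratory niche-like cells at P38 and 6 months only.

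Among the 10 leading genes of a class by fold over the other cells of its library were keratins in several classes, although none was a marker. Krt1, Krt10 and Krt77 led spinous-like cells in all 3 libraries, Krt79 led UpHF-like cells in all 3, and Krt24 led outer bulge-like cells in all 3. Each class had at least 1 of its own markers among its 10 leading genes, with the exception of IFE basal-like cells at 6 months, which had 0. No class had more markers of another class than of its own among them. These markers had been used to choose the cells, so their rank is no independent check of the classes.

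Free RNA in droplets gives UMIs of abundant genes to cells that do not make them. T cell-like cells, which are not expected to make keratins, held 242 CPM of Krt14 at 6 months and 146 CPM at 12 months. In these cells keratins made up 0.0981% of UMIs at 6 months and 0.0634% at 12 months, against 2.59% and 2.68% in IFE basal-like cells of the same libraries. P38 held no T cell-like or fibroblast-like cells, so no background level is given for it.

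Keratin transcripts were concentrated in a minority of the family. In all, 25 members reached 100 CPM in at least 1 keratinocyte class, 6 reached between 20 and 100 CPM, and 22 stayed below 20 CPM everywhere. Krt39 and Krt40 had 0 UMIs in the kept cells. All 3 basal keratins, 5 of 7 suprabasal keratins, 4 of 5 companion layer and wound keratins, 5 of 7 IRS keratins and 5 of 15 hair shaft keratins were among the 25. None of the 4 keratins of internal and corneal epithelia was, and of 6 keratins of simple epithelia only Krt23 was.

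**Figure D1:**
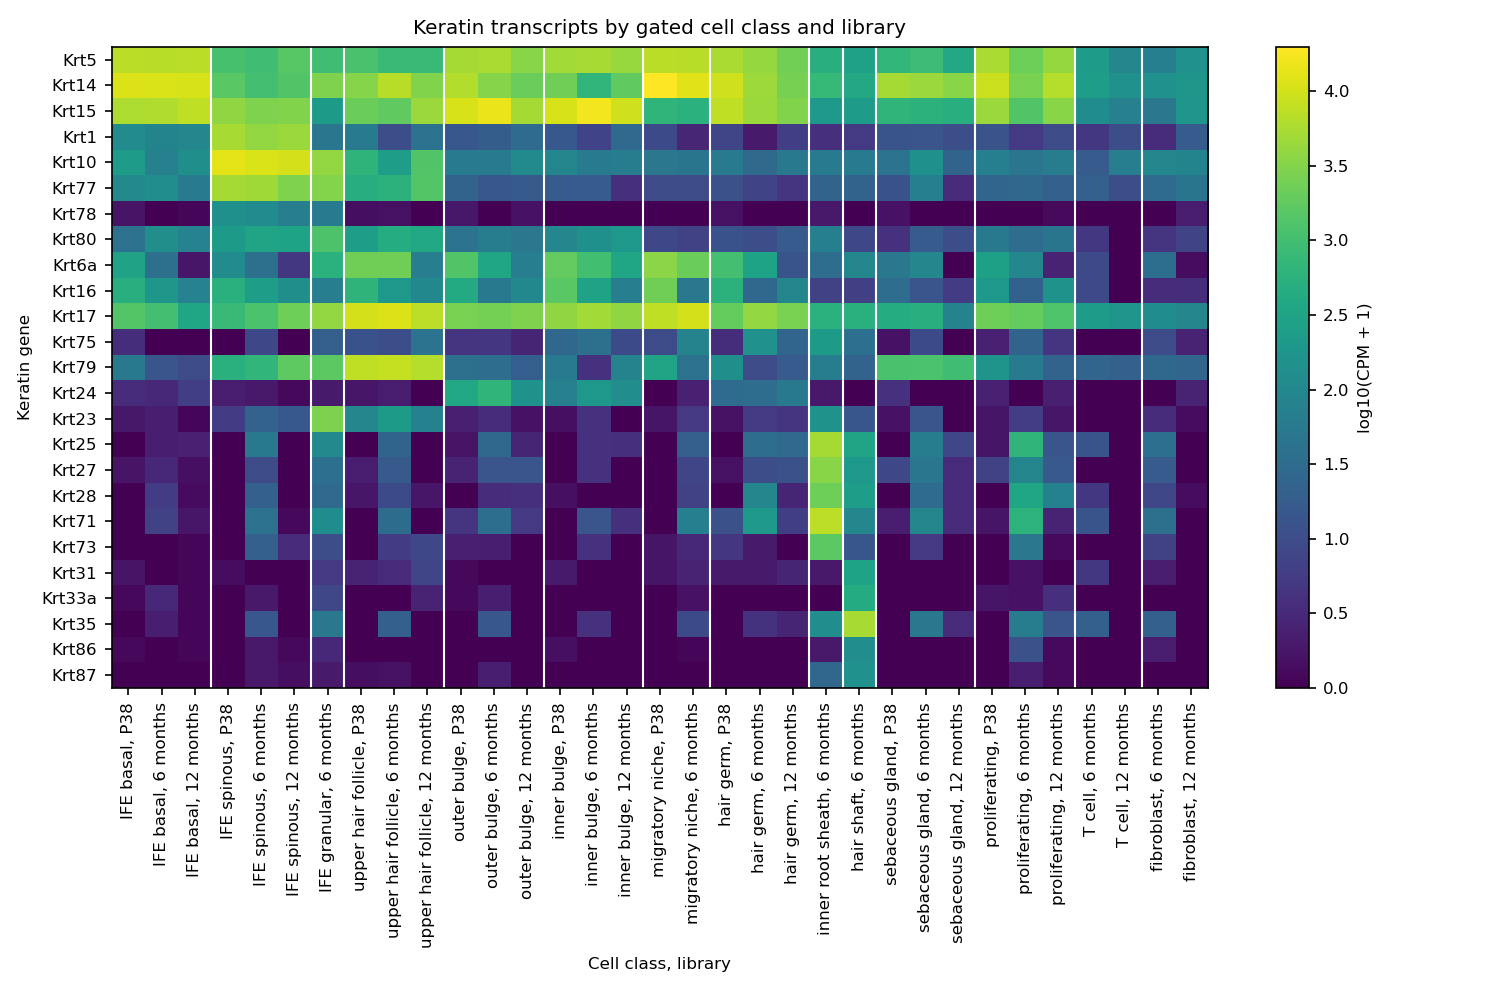
Level of the 25 keratins that reached 100 CPM, as log10(CPM + 1), in each cell class and library (columns), with white lines between classes. Krt5, Krt14, Krt15 and Krt17 were seen in every keratinocyte class. The IRS and hair shaft keratins in the lower rows were highest in the IRS-like or hair shaft-like column at 6 months. Some IRS keratins were also seen at lower levels in other columns of that library.

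The share of keratins among all UMIs differed between classes. It was 2.77%, 2.59% and 2.68% in IFE basal-like cells of the 3 libraries in order of age. It was highest in migratory niche-like cells at P38 (4.13%) and lowest in sebaceous gland-like cells, with 0.836%, 0.828% and 0.539%. Within each class and library the 2 most abundant members took between 35.8% and 80.6% of the keratin UMIs.

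Differences between classes were tested on the UMI sums with the quasi-likelihood test of edgeR, fitted over 29 sums of 12 classes with the library as a term. The fit covered 12364 genes, 40 of them keratins, and p-values were adjusted over all genes (Benjamini-Hochberg). The 13 members that did not pass the filter on low counts were not tested. Each comparison rests on at most 1 sum per class and library, and these 3 libraries are the only replicates.

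The first comparison asked how the keratins differ between the basal and the spinous layer of the IFE, that is, on the way from dividing to differentiating cells. Krt14 stood at 11832, 11397 and 11059 CPM in IFE basal-like cells (P38, 6 and 12 months), and at 1596, 1042 and 1335 CPM in spinous-like cells. Its partner Krt5 stood at 7241, 6742 and 7105 CPM in basal-like cells and at 1094, 961 and 1490 CPM in spinous-like cells. The groups did not overlap for either gene. Both were lower in spinous-like cells, Krt14 by a log2 fold change of -3.14 (SE 0.46, adjusted p = 3.92e-05, edgeR) and Krt5 by -2.54 (SE 0.32, adjusted p = 6.46e-06, edgeR).

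The third basal keratin, Krt15, is known from basal cells and above all from bulge stem cells. It stood at 5828, 6034 and 7687 CPM in basal-like cells and at 3768, 2948 and 3073 CPM in spinous-like cells. Although the groups did not overlap, the log2 fold change of -1.03 (SE 0.39) did not pass (adjusted p = 0.0816, edgeR).

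The suprabasal keratins went the other way. Krt10, the type I keratin of the differentiating layers, was at 237, 72.9 and 136 CPM in basal-like cells and at 13036, 11217 and 10499 CPM in spinous-like cells at P38, 6 and 12 months. Krt1, its type II partner, was at 116, 86.1 and 94.7 CPM and at 5530, 3910 and 4453 CPM. Krt77, another type II keratin of these layers, was at 103, 127 and 61.4 CPM and at 5181, 4886 and 2889 CPM. Every spinous-like sum was above every basal-like sum for these 3 genes. The log2 fold changes were 6.35 for Krt10 (SE 0.56, adjusted p = 9.53e-08), 5.55 for Krt1 (SE 0.37, adjusted p = 1.8e-09) and 5.49 for Krt77 (SE 0.51, adjusted p = 1.6e-07) by edgeR.

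Krt78 was lower in level but as sharply divided, with 140, 117 and 67.7 CPM in spinous-like cells and at most 0.672 CPM in basal-like cells. Krt80, a type II keratin widespread in stratified epithelia, was at 218, 324 and 312 CPM in spinous-like cells against 38.5, 132 and 79.6 CPM in basal-like cells, a log2 fold change of 1.85 (SE 0.31, adjusted p = 0.000212, edgeR). In all, 8 of the 40 tested keratins were higher in spinous-like cells (background 6.23% of all genes tested) and 2 were lower (background 7.25%). The others that were higher were Krt79, Krt23 and Krt73. Krt79, a leading gene of UpHF-like cells, was at 527, 671 and 1720 CPM in spinous-like cells against 52.7, 12.6 and 8.43 CPM in basal-like cells. Krt17, also abundant in UpHF-like cells, was at 2207 CPM in spinous-like cells at 12 months against 342 CPM in basal-like cells. Whether the spinous-like class held cells of the upper follicle was not tested.

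Of the 7 suprabasal keratins, Krt1, Krt10, Krt77, Krt78 and Krt80 were higher. The remaining members were scarce: Krt2, known from ear and tail epidermis, reached at most 7.30 CPM in any class, and Krt9, known from footpads, at most 2.06 CPM. The call of Krt73, an IRS keratin, rested on 20.2 CPM in spinous-like cells at 6 months and 2.43 CPM at 12 months. It was lost without the 6 months library (and without the 12 months library), and its sign turned with a stricter gate.

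Keratin filaments are anchored and bundled by plakins and desmosomal proteins. The 12 filament partner genes listed beside the family were Dsp, Plec, Ppl, Evpl, Eppk1, Pkp1, Jup, Dst, Fam83h, Tchp, Trim29 and Vim. Not all are of these kinds, since Fam83h, Trim29 and Vim encode neither plakins nor desmosomal proteins. In spinous-like against basal-like cells, 7 of the 12 were higher and 2 were lower. Dsp (desmoplakin, which ties keratins to desmosomes) was at 1424, 1507 and 1461 CPM in spinous-like cells against 630, 787 and 695 CPM in basal-like cells at P38, 6 and 12 months, a log2 fold change of 1.06 (SE 0.30, adjusted p = 0.021, edgeR). Evpl (envoplakin) had the largest log2 fold change of the 12, with 1.91 (SE 0.25, adjusted p = 1.1e-05, edgeR). Ppl, Jup, Pkp1, Trim29 and Eppk1 were also higher. The 2 that were lower were Plec, at -1.31 (SE 0.24, adjusted p = 0.000574, edgeR), and Dst, at -1.25 (SE 0.34, adjusted p = 0.0142, edgeR). Both encode plakins known to link keratins to hemidesmosomes at the basement membrane.

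The granular layer is the last living layer of the epidermis. Granular-like cells numbered 205 at 6 months with a median of 563 UMIs, and with 1 library no test was made. The values rest mostly on few cells, since the 26 cells with at least 1000 genes held 88.5% of the UMIs. Krt10 stood at 3935 CPM (against 11217 CPM in spinous-like cells of that library), Krt1 at 48.2 CPM (against 3910) and Krt77 at 3149 CPM (against 4886). In the 26 deeper cells alone Krt1 was at 14.2 CPM, Krt10 at 4047 CPM and Krt77 at 3374 CPM, so that Krt1 stayed far below its spinous-like level. Krt23 (2845 CPM against 21.1) and Krt80 (1263 CPM against 324) were higher there than in spinous-like cells. Krt17, a keratin of follicle and wounded epidermis, was at 3943 CPM and Krt79 at 1613 CPM, so that granular-like cells here also held keratins that are abundant in UpHF-like cells. In UpHF-like cells of that library Krt1 was likewise low, at 9.94 CPM. Whether the granular-like cells came from the IFE or from the upper follicle was not tested, so their Krt1 level is not given as that of the IFE.

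UpHF-like cells line the infundibulum, the mouth of the follicle that opens into the epidermis. Krt79, the marker of this canal, stood at 7628, 8396 and 6644 CPM at P38, 6 and 12 months, against 52.7, 12.6 and 8.43 CPM in IFE basal-like cells. This was the largest log2 fold change among the tested keratins of this comparison, 8.86 (SE 0.95, adjusted p = 3.86e-07, edgeR). Krt17 stood at 10618, 11636 and 7463 CPM against 1400, 1027 and 342 CPM, with a log2 fold change of 3.64 (SE 0.50, adjusted p = 9.65e-06, edgeR). Krt17 was the most abundant keratin of UpHF-like cells in all 3 libraries.

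The suprabasal keratins Krt10, Krt77 and Krt80 were also higher in UpHF-like than in basal-like cells, whereas Krt1 was lower. Krt10 was at 627, 260 and 1356 CPM and Krt77 at 475, 581 and 1397 CPM in UpHF-like cells, well below their spinous-like levels. Krt1 was at 55, 9.94 and 40.2 CPM, with a log2 fold change of -1.50 (SE 0.34, adjusted p = 0.00177, edgeR). Krt23, of unclear role in skin, was at 97.9, 215 and 75.2 CPM against at most 1.32 CPM in basal-like cells, with a log2 fold change of 7.48 (SE 0.49, adjusted p = 2.75e-10, edgeR).

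The basal pair was split in UpHF-like cells. Krt5 fell to 1148, 804 and 825 CPM, a log2 fold change of -2.82 (SE 0.32, adjusted p = 9.22e-07, edgeR), while Krt14 stood at 3332, 6790 and 3043 CPM, a log2 fold change of -1.16 (SE 0.43, adjusted p = 0.04997, edgeR). In total 10 of 40 keratins were higher (background 14.5% of all genes tested) and 4 were lower (background 12.2%). The calls of Krt14 and of Krt15 (log2 fold change -1.14) were lost without P38, that of Krt14 also without 12 months and that of Krt15 also without 6 months. The calls of Krt35, Krt31 and Krt75 rested on levels of at most 41.9 CPM. Those of Krt31 and Krt75 were lost without 12 months and those of Krt31 and Krt35 without 6 months, where Krt35 was at 19.9 CPM in UpHF-like and also at 19.9 CPM in T cell-like cells.

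Of the 12 filament partners, 7 were higher and 2 lower in UpHF-like than in basal-like cells. Dst was at 34.2, 54.4 and 151 CPM in UpHF-like cells against 330, 749 and 531 CPM in basal-like cells, a log2 fold change of -2.71 (SE 0.36, adjusted p = 6.39e-06, edgeR). Plec was lower by a log2 fold change of -1.73 (SE 0.25, adjusted p = 1.63e-05, edgeR). The comparisons with IFE basal-like cells all use the same basal-like sums, so they are not independent of each other.

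**Figure D2:**
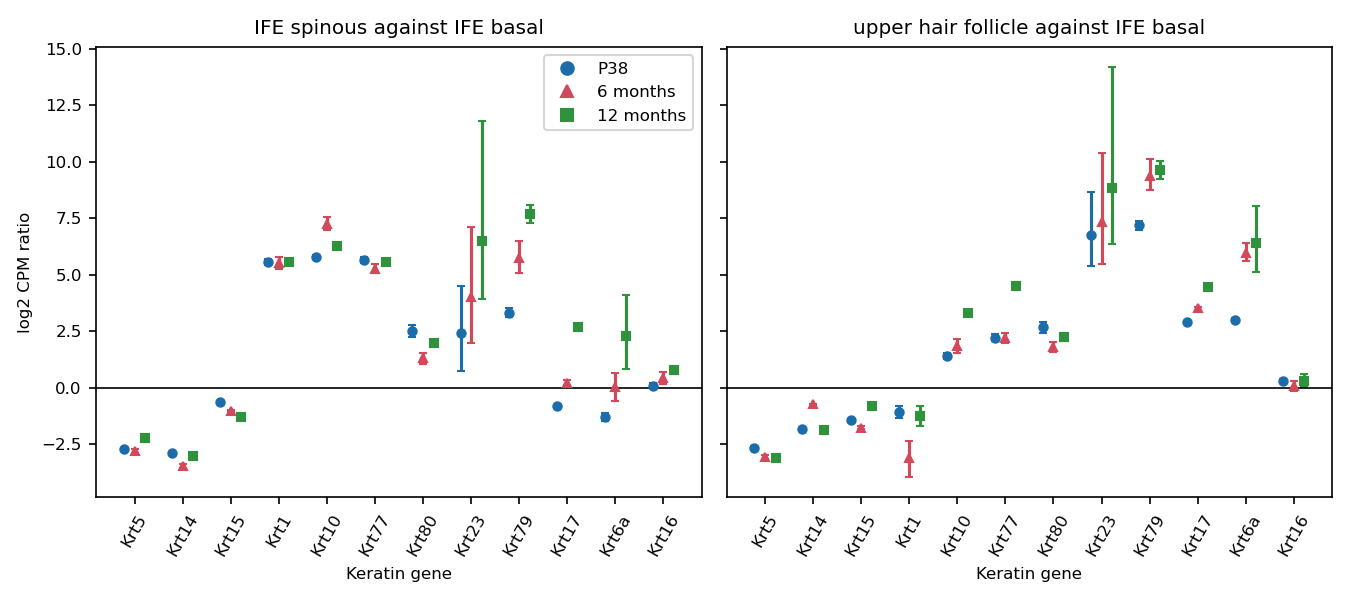
Log2 CPM ratio over IFE basal-like cells within each library for 12 keratins (x axis), in spinous-like (left) and UpHF-like cells (right), with exact 95% counting intervals. Krt5 and Krt14 lay below 0 and Krt10 and Krt77 above 0 in all 3 libraries of both panels, whereas Krt1 was above 0 in spinous-like and below 0 in UpHF-like cells.

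The outer bulge holds the hair follicle stem cells (HF-SCs). Outer bulge-like cells were set apart from IFE basal-like cells above all by Krt24, a type I keratin. It stood at 370, 641 and 158 CPM at P38, 6 and 12 months in outer bulge-like cells and at 2.46, 1.99 and 5.35 CPM in IFE basal-like cells, with a log2 fold change of 6.33 (SE 0.52, adjusted p = 5.53e-08, edgeR). T cell-like cells held 0 UMIs of Krt24, which allows up to 11.9 CPM at 6 months and 14.6 CPM at 12 months (3 counts). Counting intervals and limits in this text cover counting error only.

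Krt15, the classic bulge keratin, did not separate these 2 classes. It stood at 10899, 14872 and 5215 CPM in outer bulge-like cells and at 5828, 6034 and 7687 CPM in IFE basal-like cells, so that the ranges overlapped. Krt14 was lower in outer bulge-like cells, at 6301, 3335 and 2149 CPM, with a log2 fold change of -1.88 (SE 0.44, adjusted p = 0.00381, edgeR). Krt5 stood at 5155, 5645 and 3477 CPM, and its log2 fold change of -0.81 did not pass (SE 0.30, adjusted p = 0.0702, edgeR). Thus Krt15 exceeded Krt14 in outer bulge-like cells of all 3 libraries, while Krt14 exceeded Krt15 in IFE basal-like cells of all 3.

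Krt6a, a type II keratin of the companion layer and of wounds, was at 1364, 354 and 68.0 CPM in outer bulge-like cells against 297, 37.1 and 0.811 CPM in IFE basal-like cells, a log2 fold change of 3.01 (SE 0.71, adjusted p = 0.00417, edgeR). The groups overlapped across libraries, but outer bulge-like cells were higher within each. Krt8 and Krt19, keratins of simple epithelia, were also called higher, at levels of at most 7.57 CPM for Krt19. In total 7 of 40 keratins were higher (background 8.93% of all genes tested) and 4 were lower (background 8.02%), and 1 of 12 filament partners, Ppl, was lower. Without the 12 months library the calls of Krt14, Krt17, Krt27, Krt32 and Krt42 were lost, and without the 6 months library those of Krt17 and Krt27.

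Inner bulge cells form the niche layer inside the stem cells. No keratin passed between inner bulge-like and outer bulge-like cells by edgeR (0 of 40, background 0.332% higher and 0.0728% lower). At an unadjusted p under 0.05 by edgeR there were 9. The share of all genes at this cut is not given here, so that count is not read as a result about keratins. DESeq2 called 1, Krt80, higher (log2 fold change 1.41, adjusted p = 0.0222, DESeq2), named here after its value was seen. Krt80 was at 96.1, 142 and 193 CPM in inner bulge-like cells and at 42.7, 64.3 and 48.9 CPM in outer bulge-like cells, so that the groups did not overlap. By edgeR its log2 fold change was 1.41 (SE 0.33, adjusted p = 0.0595).

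Krt24 was at 72.8, 196 and 128 CPM in inner bulge-like cells, with a log2 fold change of -1.62 (SE 0.42) against outer bulge-like cells that did not pass (adjusted p = 0.0947, edgeR) and passed without the 12 months library (log2 fold change -2.04, adjusted p = 0.0406, edgeR). Krt6a, the keratin often used to mark this layer, was at 1865, 977 and 349 CPM in inner bulge-like cells. It was higher there than in outer bulge-like cells within each library, with log2 CPM ratios of 0.45, 1.46 and 2.36 at P38, 6 and 12 months, but the fitted 1.64 (SE 0.69) did not pass (adjusted p = 0.446, edgeR). Krt15 was the most abundant keratin of inner bulge-like cells in all 3 libraries, at 11023, 16596 and 9676 CPM.

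Migratory niche-like cells, which carry genes of the niche layer outside the bulge, differed clearly from inner bulge-like cells in the type I keratins. Krt14 was at 19811 CPM at P38 and 12791 CPM at 6 months, against 2279, 680 and 1783 CPM in inner bulge-like cells at P38, 6 and 12 months. Krt15 went the other way, at 657 and 544 CPM. The log2 fold changes were 3.32 for Krt14 (SE 0.49, adjusted p = 0.000137) and -4.37 for Krt15 (SE 0.53, adjusted p = 1.34e-05) by edgeR. The 19811 CPM of Krt14 at P38 was the highest level of any keratin in any class.

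Krt24 and Krt80 were nearly lost in migratory niche-like cells, at 0 and 1.49 CPM for Krt24 and at 7.62 and 5.75 CPM for Krt80. Their log2 fold changes were -6.87 (SE 0.77, adjusted p = 5.23e-06) and -4.41 (SE 0.48, adjusted p = 4.56e-06) by edgeR. Krt6a was at 3495 and 2139 CPM and Krt17 at 7553 and 10365 CPM, and neither passed against inner bulge-like cells. Together 1 of 40 keratins was higher (background 4.06% of all genes tested) and 4 were lower (background 3.99%), the other being Krt32, whose call was lost without either library. With 2 libraries in this class, leaving out 1 leaves a lone sum that is assumed to vary like the other classes.

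The hair germ lies below the bulge and starts each new growth phase. Hair germ-like cells held less Krt24 than outer bulge-like cells, at 30.6, 33.6 and 54.6 CPM, with a log2 fold change of -3.27 (SE 0.45, adjusted p = 0.000857, edgeR). Krt80 was at 11.3, 9.75 and 15.8 CPM against 42.7, 64.3 and 48.9 CPM, with a log2 fold change of -2.07 (SE 0.40, adjusted p = 0.0137, edgeR). These were the 2 keratins of 40 that were lower (background 0.372% of all genes tested). None was higher (background 0.226%), and DESeq2 called none higher. In either direction 9 keratins had an unadjusted p under 0.05 by edgeR, a count given without the share of all genes and not read as a result. The calls of Krt24 and Krt80 were lost without P38 and without 6 months, and that of Krt80 also without 12 months.

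**Figure D3:**
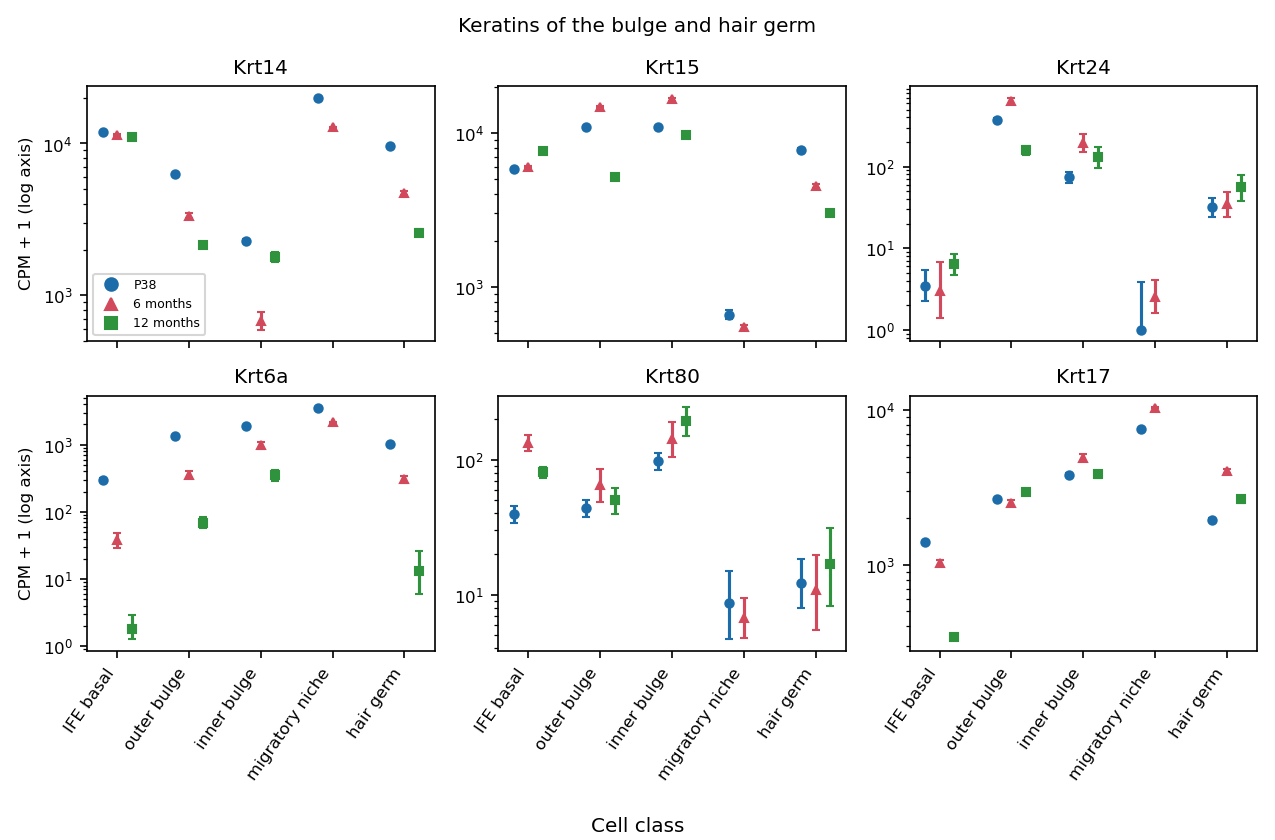
CPM + 1 (log axis, a different range in each panel) of 6 keratins in IFE basal-like cells and 4 follicle classes, per library, with exact Poisson 95% intervals. Krt24 was above 70 CPM in the outer and inner bulge-like classes of all libraries and below 10 CPM in IFE basal-like and migratory niche-like cells, and Krt15 and Krt14 went in opposite directions between inner bulge-like and migratory niche-like cells.

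Sebaceous gland-like cells, which fill with lipid and shed their content, held few keratin transcripts for their depth. Krt14 and Krt79 led in all 3 libraries. Krt79 stood at 1169, 1195 and 958 CPM against 52.7, 12.6 and 8.43 CPM in IFE basal-like cells, with a log2 fold change of 5.72 (SE 0.84, adjusted p = 1.71e-05, edgeR). Krt5 stood at 687, 872 and 388 CPM, lower by a log2 fold change of -3.64 (SE 0.34, adjusted p = 3.17e-08, edgeR), and Krt15 at 648, 586 and 500 CPM, lower by -3.69 (SE 0.43, adjusted p = 8.69e-07, edgeR). Krt14 kept 5210, 4445 and 3386 CPM, lower by -1.61 (SE 0.43, adjusted p = 0.00691, edgeR), a call lost without the 12 months library.

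In total 4 of 40 keratins were higher in sebaceous gland-like than in IFE basal-like cells (background 12.3% of all genes tested) and 9 were lower (background 15.8%). Of the 12 filament partners 7 were lower and none was higher, with Ppl at a log2 fold change of -2.93 (SE 0.31, adjusted p = 1.77e-07, edgeR). Beside Krt79, the keratins called higher were Krt35, Krt27 and Krt71, and these calls were lost without the 6 months library. There they stood at 51.4, 47.3 and 88.5 CPM, against 19.9, 0 and 11.9 CPM in T cell-like cells of that library, and the cells of this class had a median of only 590 UMIs. The 22 of its 136 cells with at least 1000 genes held 85.2% of its UMIs at 6 months. At 12 months 19 of 68 cells held 92.2%. The part of free RNA in these 3 calls was not tested. Of the keratins called lower, Krt17 was lost without P38 and without 6 months and Krt77 without P38.

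The IRS moulds the growing hair and is known for a set of keratins of its own. In IRS-like cells at 6 months the type II keratin Krt71 was at 7531 CPM and the type I keratins Krt25, Krt27 and Krt28 were at 5323, 3408 and 2217 CPM. Krt73 was at 1607 CPM and Krt75, of the companion layer, at 219 CPM. In T cell-like cells of the same library Krt71 and Krt25 were at 11.9 CPM each, Krt28 was at 3.97 CPM, and Krt27 and Krt73 had 0 UMIs. Of the other 2 IRS keratins, Krt26 reached 26.0 CPM and Krt72 10.6 CPM.

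The IRS keratins were not spread evenly over the other follicle classes of that library. Proliferating cells held 659 CPM of Krt25, 591 CPM of Krt71 and 350 CPM of Krt28, but 88.3 CPM of Krt27 and 49.2 CPM of Krt73. Hair germ-like cells held 212 CPM of Krt71 and 95.4 CPM of Krt28 but 9.75 CPM of Krt27. The ratio of Krt27 to Krt71 was 0.453 (95% interval 0.435 to 0.471) in IRS-like cells, 0.149 (0.124 to 0.179) in proliferating cells and 0.0459 (0.0207 to 0.089) in hair germ-like cells. These intervals did not overlap, and with 1 library they cover counting error only.

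At P38 and 12 months, IRS-like cells numbered 7 and 17 and were not summed. In proliferating cells of these libraries Krt71 stood at 0.725 and 1.66 CPM. Krt28 stood at 0 UMIs at P38 but at 76.3 CPM at 12 months.

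Hair shaft keratins were likewise measured at 6 months. Krt35, one of the first keratins of the hair matrix and cortex, was at 5486 CPM in hair shaft-like cells, followed by Krt33a at 443 CPM, Krt31 at 309 CPM, Krt87 at 149 CPM and Krt86 at 127 CPM. In IRS-like cells Krt35 was at 124 CPM and in T cell-like cells at 19.9 CPM, whereas Krt33a, Krt86 and Krt87 had 0 UMIs in T cell-like cells. Krt83 (87.7 CPM) and Krt36 (86.6 CPM) fell just short of 100 CPM. Krt83 was also seen in T cell-like cells, at 19.9 CPM (5 UMIs) at 6 months and 39.0 CPM (8 UMIs) at 12 months. The source of these UMIs was not tested. Krt32, placed with the hair shaft keratins by its known site, was instead highest in IFE basal-like cells, at 73.0 CPM at 12 months.

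**Figure D4:**
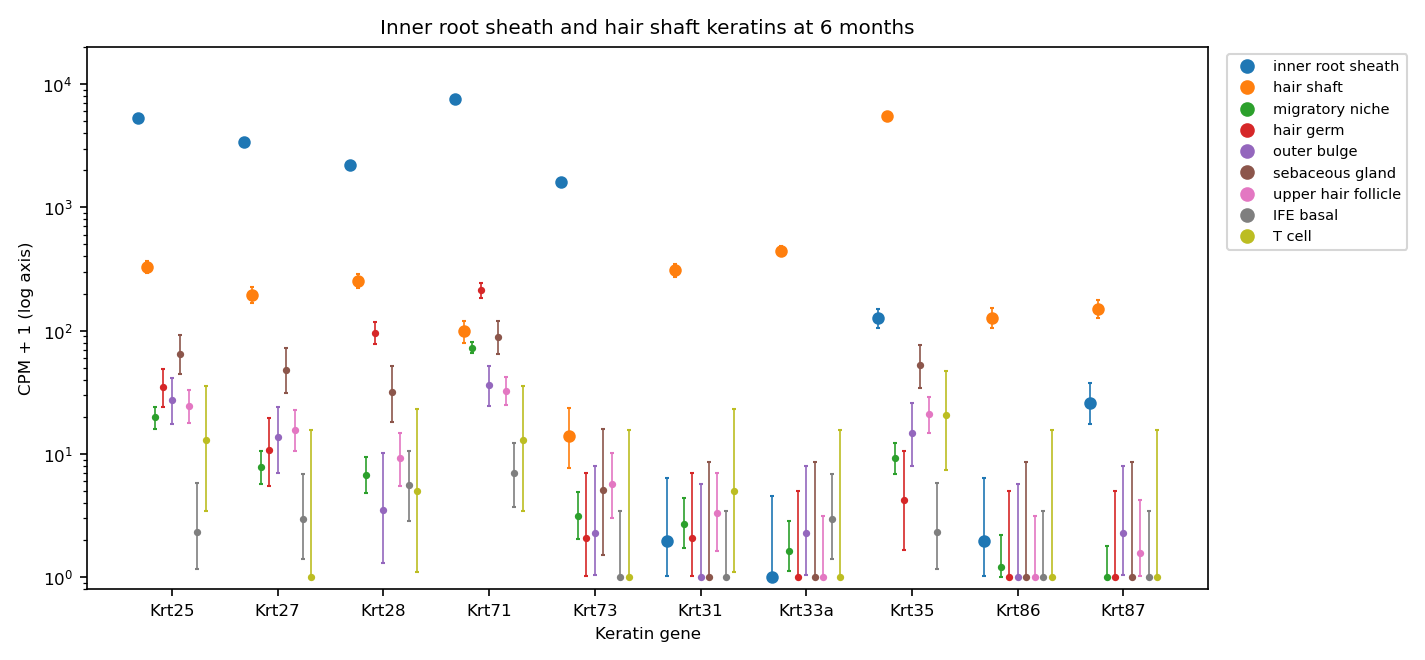
CPM + 1 (log axis) at 6 months of the 5 IRS and 5 hair shaft keratins that reached 100 CPM, in 9 cell classes (colours), with exact Poisson 95% intervals. The IRS keratins were highest in IRS-like cells and the hair shaft keratins in hair shaft-like cells, and the levels in T cell-like cells show the background of free RNA.

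Type I and type II transcripts were not balanced. The sum of type I UMIs exceeded that of type II in every class and library. In IFE basal-like cells the ratio was 2.53 (95% interval 2.49 to 2.56), 2.62 (2.56 to 2.68) and 2.63 (2.60 to 2.66) in the 3 libraries in order of age. In spinous-like cells it was 1.54, 1.53 and 1.58, and in UpHF-like cells 1.47, 1.66 and 1.75, both below all 3 basal-like values. In outer bulge-like cells it was 3.12, 3.48 and 2.91, above all 3 basal-like values. IRS-like cells had the lowest ratio, 1.27 (1.24 to 1.30). These are ratios of transcripts over the 53 genes analysed here, and other keratin genes were not analysed here. In hair shaft-like cells the ratio was 8.66, which is for that reason not set against the other classes.

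**Figure D5:**
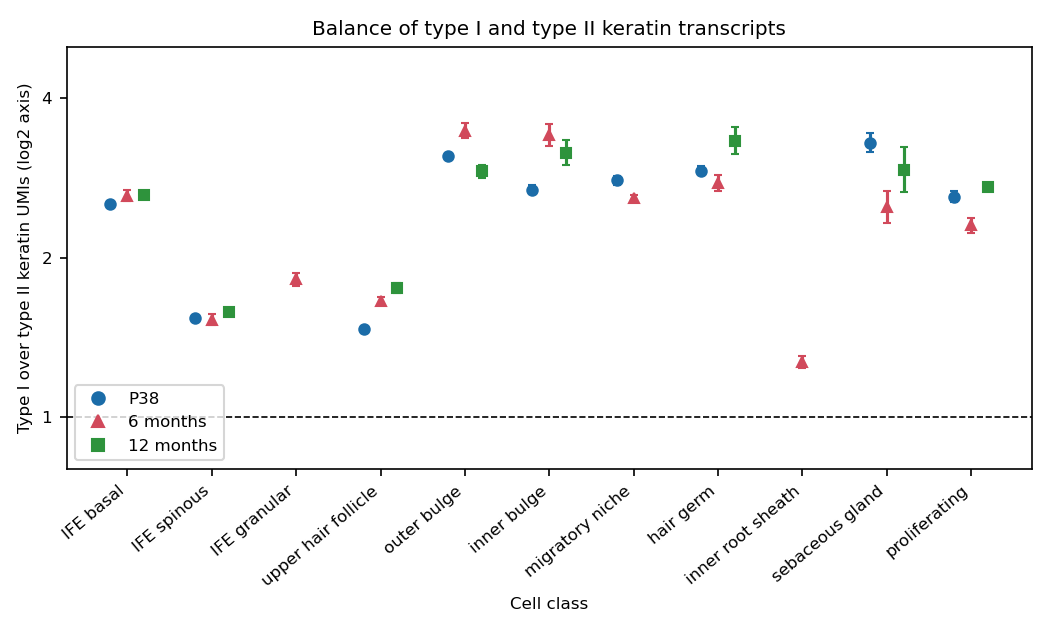
Ratio of type I to type II keratin UMIs (log2 axis) per class and library, with exact 95% intervals, over the 53 genes analysed here and without hair shaft-like cells. All points lie above 1 (dashed line), with spinous-like, UpHF-like and IRS-like cells below IFE basal-like cells.

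Single pairs were less even than the sums. Krt14 to Krt5 was 1.63, 1.69 and 1.56 in IFE basal-like cells (P38, 6 and 12 months). The same ratio was 0.461, 0.124 and 0.418 in inner bulge-like cells, 2.83 and 1.88 in migratory niche-like cells at P38 and 6 months, and 7.58, 5.10 and 8.74 in sebaceous gland-like cells. In inner bulge-like cells, where Krt14 was low, Krt15 to Krt5 was 2.23, 3.03 and 2.27. Krt10 to Krt1 was 2.36, 2.87 and 2.36 in spinous-like cells and 81.6 (95% interval 61.1 to 112) in granular-like cells, where Krt10 to Krt77 was 1.25. In the 26 granular-like cells with at least 1000 genes Krt10 to Krt1 was 285, from 12 UMIs of Krt1.

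Profiles over the 29 sums were compared between members of opposite type, as a description (Pearson's r of log2 CPM with 5 CPM added). The points share libraries, depth and free RNA. For Krt10 the nearest type II profile was that of Krt77 (r = 0.95), ahead of Krt78 (0.89) and Krt1 (0.88). For Krt71 the nearest type I profile was Krt25 (0.94). For Krt86 it was Krt33a (0.93), for Krt17 it was Krt6a (0.72), and for Krt15 it was Krt5 (0.67). Krt14 also had Krt5 as its nearest, at a lower r of 0.57. Krt24 had no close profile among type II members, with Krt5 nearest at 0.48. The r of Krt86 and Krt33a rests largely on 1 sum, that of hair shaft-like cells at 6 months. There they stood at 127 and 443 CPM, against at most 10.7 and 7.34 CPM in the other sums. Of the 89 cells in that sum, 40 held Krt86 and 10 held Krt33a.

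Promoters of 36 of the 53 members were matched in RefSeq (GRCm38.p6). In 33 of them, 14 among the 25 more abundant members, the RefSeq start lay within 100 bases of the start of the gene in the GENCODE annotation. The windows of Krt7, Krt8 and Krt14 lay further off and were not used. The 60 bases before the RefSeq start were searched for ATAAA, a form of the core of the TATA box, on the sense strand. It was found in 22 of 33 keratin promoters (66.7%), against 7.55% of the 14213 promoters of all genes chosen in the same way, and the longer TATAAA, which contains it, in 15 (45.5%) against 3.84%. On the other strand ATAAA was in 0 of 33 keratin promoters and in 3.00% of all. Its median distance to the start was 29 bases. Among the members at or above 100 CPM 11 of 14 held it, and among those below 11 of 19.

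Examples from each layer follow, with ATAAA in capitals, 5ʹ to 3ʹ on the gene's own strand (minus for all 5) and ending at the base before the RefSeq start. Krt5 is the type II keratin of basal cells, Krt10 and Krt77 the members with the closest profiles, and Krt25 and Krt71 the IRS pair.
Krt5 (chr15:101712906-101712965): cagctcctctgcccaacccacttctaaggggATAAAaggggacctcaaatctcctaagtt
Krt10 (chr11:99389365-99389424): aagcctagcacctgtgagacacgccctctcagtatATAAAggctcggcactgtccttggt
Krt77 (chr15:101869706-101869765): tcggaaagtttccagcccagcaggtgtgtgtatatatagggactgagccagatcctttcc
Krt25 (chr11:99322952-99323011): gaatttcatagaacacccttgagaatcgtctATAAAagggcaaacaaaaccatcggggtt
Krt71 (chr15:101743098-101743157): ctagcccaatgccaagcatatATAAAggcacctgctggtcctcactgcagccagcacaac
In Krt77 these 5 letters were not in the window, which holds tatatata. The search for ATAAA alone therefore does not show that a TATA box is absent. A match describes the sequence and not the use of a site.

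How far each member was limited to 1 class was measured by tau, which is 0 for a gene of equal level in all classes and 1 for a gene seen in a single class, over the 8 classes that all libraries held. A member was measured in a library when it reached 100 CPM in 1 of these classes. Tau was 0.8 or more for 7 of 13 measured members in the P38 library, for 13 of 18 in that of 6 months and for 6 of 12 in that of 12 months. Tau was not set against that of other genes, so these counts do not show whether keratins were more limited than other genes. The 13 at 6 months include Krt25, Krt28 and Krt71 with proliferating cells on top, since IRS-like cells were not among the 8 classes. They also include Krt23 and Krt75, highest in that library in granular-like (2845 CPM) and IRS-like cells (219 CPM), which were likewise not among the 8. Krt5 had the lowest tau at P38 (0.52) and at 6 months (0.57), and Krt16 at 12 months (0.46). Of the 12 members measured in all 3 libraries, 10 had the same top class in each. These were Krt14 and Krt5 in IFE basal-like cells, Krt1, Krt10 and Krt77 in spinous-like cells, Krt17, Krt79 and Krt80 in UpHF-like cells, Krt24 in outer bulge-like cells and Krt15 in inner bulge-like cells. The exceptions were Krt16 and Krt6a. Over all classes of a library some top classes were others. Krt14 was highest in migratory niche-like cells at P38 and 6 months, Krt5 in migratory niche-like cells at 6 months and Krt80 in granular-like cells at 6 months.

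The levels of Krt6a and Krt16 were far apart between libraries. With 1 library per age there is no test of age, and the values are given with counting intervals only. Krt6a in UpHF-like cells was at 2361 (95% interval 2300 to 2424), 2331 (2259 to 2404) and 68.4 (54.2 to 85.1) CPM in order of age. In outer bulge-like cells it was at 1364 (1329 to 1399), 354 (314 to 398) and 68.0 (56.1 to 81.7) CPM. In inner bulge-like cells it was at 1865, 977 and 349 CPM, in hair germ-like cells at 1021, 305 and 12.3 CPM, and in IFE basal-like cells at 297, 37.1 and 0.811 CPM. The 12 months level was the lowest in each of these 5 classes.

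Krt16, the type I keratin induced with Krt6a in wounded and hyperproliferative epidermis, was highest at P38 in each of the 8 classes that all libraries held. In inner bulge-like cells it was at 1546 (1491 to 1603), 304 (246 to 371) and 67.0 (42.9 to 99.6) CPM in order of age. In migratory niche-like cells it was at 2361 (2278 to 2445) CPM at P38 and 52.4 (46.1 to 59.4) at 6 months, while Krt6a differed much less there, at 3495 and 2139 CPM. Krt6b was scarce, with at most 3.34 CPM, and the last 500 bases of Krt6a and Krt6b shared no run of 50 bases.

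In outer bulge-like cells Krt24 was at 370, 641 and 158 CPM, Krt15 at 10899, 14872 and 5215 CPM and Krt14 at 6301, 3335 and 2149 CPM at P38, 6 and 12 months. The 12 months value was the lowest for each. The summed keratin share of these cells was 2.74%, 2.78% and 1.44%. In IFE basal-like cells Krt14 and Krt5 varied little between libraries, as given above. Hair cycle, sex, age and library cannot be told apart in these values.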

How the data were processed

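According to the authors' methods, the authors ran Cell Ranger on mm10 for the scRNAseq reads (10X Chromium 3ʹ). The file headers name version 6.1.2 for P38 and 6.0.0 for 6 and 12 months, whereas the methods name an earlier version. The deposited files hold unnormalized UMI counts, 1 gene by barcode matrix per age. GEO's labels gave the age of each library.

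As in the methods, a cell was kept when it had over 200 but under 5000 genes and mitochondrial UMIs below 15%. This left the number of cells the methods state at P38, nearly that number at 12 months and clearly more at 6 months. Each kept cell was scored for lists of non-keratin markers as the mean standardized log expression. It was given the class of its highest score when at least 2 markers were detected, the score was above 0.5 and the lead over the next class was above 0.25 (0.75 in the stricter gate). These thresholds were set after the cells had been seen. Members, groups, markers and tests were chosen with earlier results of these data known. Scrublet called 7 of the 8851 kept cells, so its threshold has not worked here, and no cell was removed. An alternative removed the highest scores at 0.8% per 1000 barcodes (40, 133 and 141 cells). Free RNA was not subtracted.

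UMIs were summed per class and library (316215 to 6167749 per sum). CPM and ratios carry exact 95% intervals (Poisson, or binomial conditional on both counts), which cover counting error only. Sums were tested with edgeR 4.0.16 in R 4.3.3 (TMM, filterByExpr, quasi-likelihood F test, class and library as terms, 15 residual degrees of freedom), with calls at an adjusted p under 0.05 over all genes. Standard errors were taken as the log2 fold change over the square root of F. On simulated counts for IFE spinous-like against IFE basal-like cells (10940 genes), the fit recovered 75.3% of genes changed 4-fold and 15.2% of those changed 2-fold, with 1.18% of calls false. The values rest on sums of 1 library per age. With the library as a term, p-values measure how far differences between classes varied from library to library, pooled over all classes. Members were named in the text when they reached 100 CPM in a class, and others where a result turned on them. Alternatives were RLE size factors, no filter, DESeq2 1.42.0, no library term, the stricter gate, at least 1000 genes per cell, removal of the highest Scrublet scores, each library left out and, added after the data were seen, removal of barcodes shared between libraries. Other steps used Python 3.11.15, numpy 2.4.6, scipy 1.17.1, pandas 2.3.3, scanpy 1.11.5 and matplotlib 3.10.9. The last 500 bases of 7 of the 53 members shared runs of 50 bases with another member, none over more than 10% of them.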

Additional observations from a re-analysis of the deposited data

Results flagged for a closer look

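In 18 cases the CPM ratio of a keratin between 2 classes had opposite signs in 2 libraries, with both 95% counting intervals away from 0. In 13 of them the keratin reached 100 CPM in 1 of the classes compared, and these are given here. The differences themselves were not tested, since each age has 1 library. No share over all genes is given beside these counts, so they are not read as particular to keratins. In 3 cases the ratio was at least 2-fold in both directions. Krt6a in spinous-like against IFE basal-like cells had a log2 ratio of 2.30 (0.81 to 4.08) at 12 months and of -1.31 (-1.49 to -1.14) at P38, where the 12 months levels were 3.98 and 0.811 CPM. Krt6a in sebaceous gland-like against IFE basal-like cells had a log2 ratio of 1.38 (0.79 to 1.97) at 6 months and of -2.50 (-2.83 to -2.18) at P38, where T cell-like cells at 6 months held 7.94 CPM of Krt6a. Krt79 in hair germ-like against outer bulge-like cells had a log2 ratio of 1.84 (1.55 to 2.13) at P38 and of -1.92 (-3.27 to -0.73) at 6 months.

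In the other 10 cases at least 1 of the ratios was below 2-fold. For Krt17 the log2 ratio of spinous-like to IFE basal-like cells was 2.69 (2.62 to 2.76) at 12 months and -0.84 (-0.91 to -0.77) at P38, and that of hair germ-like to outer bulge-like cells was 0.69 at 6 months and -0.46 at P38. Krt15 in outer bulge-like against IFE basal-like cells had a log2 ratio of 1.30 at 6 months and of -0.56 at 12 months. For Krt16 it was 0.32 at 12 months and -1.77 at 6 months between the same classes. Krt16 also had 0.61 at P38 and -2.53 at 6 months in migratory niche-like against inner bulge-like cells, and 0.45 at P38 and -1.06 at 6 months in hair germ-like against outer bulge-like cells. Krt10 had 0.70 at P38 and -0.83 at 12 months in inner bulge-like against outer bulge-like cells, and 0.96 at 6 months and -2.63 at 12 months in sebaceous gland-like against IFE basal-like cells. Krt5 had 0.30 at 12 months and -0.06 at P38 in inner bulge-like against outer bulge-like cells, and 0.14 at P38 and -0.50 at 12 months in hair germ-like against outer bulge-like cells.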

How the results depend on the processing

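Of 55 keratin calls, 29 were called in the same direction in every alternative run. The number of keratins called differed by more than 1.5 times from the given one in these cases (the cause was not tested). Without the library term it was 9 in place of 14 for UpHF-like, 6 in place of 11 for outer bulge-like and 8 in place of 13 for sebaceous gland-like against IFE basal-like cells, and 1 in place of 2 for hair germ-like against outer bulge-like cells. With no filter it was 4 in place of 0 for inner bulge-like against outer bulge-like cells, 8 in place of 5 for migratory niche-like against inner bulge-like cells and 6 in place of 2 for hair germ-like against outer bulge-like cells. With the stricter gate it was 7 for outer bulge-like against IFE basal-like cells, 2 for inner against outer bulge-like cells and 4 for hair germ-like cells. DESeq2 called 1 keratin between inner and outer bulge-like cells. With 1 library left out, the counts ranged from 9 to 11 for spinous-like, from 11 to 13 for UpHF-like, from 8 to 11 for outer bulge-like and from 10 to 13 for sebaceous gland-like against IFE basal-like cells, from 0 to 1 for inner bulge-like, from 4 to 6 for migratory niche-like and from 0 to 2 for hair germ-like cells. The sign turned for Krt73 in spinous-like against basal-like cells with the stricter gate (-2.38), for Krt35 in UpHF-like cells without 6 months (from -0.97 to 3.93 over the libraries left out) and for Krt71 in sebaceous gland-like cells at 1000 or more genes per cell (-0.19). Other calls kept their sign. RLE size factors kept all 55 calls, and removal of shared barcodes kept 54. The ratio of type I to type II UMIs moved by at most 1.32-fold. No paired analysis was possible because the labels give 1 library per age, as far as ages are concerned. Classes were compared within libraries, with the library as the block of the fit. Granular-like against spinous-like cells were planned but not tested, since 1 library held enough granular-like cells. By the limit of 3 counts, the depth of a sum set a floor between 0.486 CPM (IFE basal-like, 12 months) and 9.49 CPM (inner bulge-like, 6 months).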
